A study of Mus musculus with 6 samples.

Results

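The mTOR pathway was followed through 10 of its genes in quadriceps muscle: the kinase Mtor, its partners Rptor and Rictor, the upstream regulators Tsc1, Tsc2 and Rheb, the substrates Eif4ebp1 and Rps6kb1, and the inhibitors Deptor and Ddit4. They were chosen by name, and every transcript row carrying one of these symbols was taken: 46 isoform rows of 105129, and 10 gene symbols of 33641. Poly-A RNA was sequenced from 3 male mice homozygous for the rs6190 allele (rs6190 allele +/+), a copy of a human variant of the glucocorticoid receptor gene Nr3c1, and from 3 male littermates with the reference allele on both chromosomes (ref allele +/+, called WT). All were about 4 months old and their muscle was taken about 4 hours after lights on. The allele is in the germline, so it is present in every tissue of these mice and not in muscle alone, and every library is 1 muscle sample with no count of its cells.

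mTOR is a protein kinase that works in a pair of complexes. With RPTOR (raptor) it forms mTORC1, which senses amino acids, energy and growth factors at the lysosome and drives translation by phosphorylating S6 kinase (Rps6kb1) and the translational repressor 4E-BP1 (Eif4ebp1). With RICTOR it forms mTORC2, which phosphorylates Akt. The GTPase RHEB switches mTORC1 on, the TSC1-TSC2 complex switches RHEB off, DEPTOR binds and restrains mTOR, and DDIT4 (REDD1) acts through TSC2. In skeletal muscle mTORC1 is a main control of fibre size, and Ddit4 is a well-known target of glucocorticoids. These are controls on protein activity, which transcript levels do not measure.

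The sequences that separate the isoforms described in most detail are printed here, 5′ to 3′ on the strand of the gene, from GENCODE M21 transcripts on GRCm38. Rps6kb1 (chromosome 11, 86498871 to 86544805, minus strand) has an isoform, ENSMUST00000020824.14, that keeps a 158 nt intron at chr11:86511667-86511824 and adds a 244 nt exon at chr11:86516744-86516987, neither of which is in the full coding isoform. Capitals mark the first and last bases of the kept intron.
Rps6kb1 kept intron: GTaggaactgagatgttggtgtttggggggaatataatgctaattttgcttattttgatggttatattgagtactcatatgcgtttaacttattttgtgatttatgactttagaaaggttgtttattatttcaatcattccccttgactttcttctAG
Rps6kb1 added exon: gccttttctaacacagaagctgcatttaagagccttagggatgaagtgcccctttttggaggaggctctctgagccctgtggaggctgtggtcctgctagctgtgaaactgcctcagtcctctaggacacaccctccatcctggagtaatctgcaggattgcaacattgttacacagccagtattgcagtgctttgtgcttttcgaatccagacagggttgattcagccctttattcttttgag
Rptor exon present in the coding isoform: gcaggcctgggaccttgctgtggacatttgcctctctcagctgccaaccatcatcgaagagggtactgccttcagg
The Rptor exon lies at chr11:119811945-119812020 on the plus strand and has 76 nt, which is not a multiple of 3. An isoform annotated as a target of nonsense-mediated decay (ENSMUST00000147781.7) skips it, and at that junction the sequence reads catgcatgccatgtgCACAGCCCATTCTTT, with the bases after the junction in capitals.

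All 10 genes were above 1 TPM in all 6 libraries. TPM is the deposited abundance, already divided by transcript length and scaled to 1 total in every library. Levels are set side by side with 1 limit: the rows cover the annotation unequally. Tsc2 has 1 row for 22 isoforms in GENCODE M21, Rictor 1 for 5 and Deptor 3 for 4, while the other genes have all of theirs. What this does to the levels and to ratios between genes was not tested. In WT muscle the order of mean levels was Eif4ebp1 (60.2 TPM), Rheb (46.0), Ddit4 (28.6), Tsc2 (11.5), Rps6kb1 (10.4), Deptor (8.41), Tsc1 (6.57), Mtor (5.99), Rptor (4.77) and Rictor (2.29). The WT ranges of neighbours in that order overlapped, with 2 exceptions: Ddit4 lay above Tsc2, and Rptor above Rictor. In homozygous muscle the order ran Eif4ebp1, Rheb, Ddit4, Rps6kb1, Tsc2, Tsc1, Mtor, Deptor, Rptor and Rictor. Rictor was the lowest of the 10 in both groups, and no WT or homozygous library of Rptor came down to a Rictor value of its own group.

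Homozygous and WT muscle were compared gene by gene to ask whether the allele goes with a change in these transcripts. In limma, fitted over 11099 genes, 0 of the 10 passed an adjusted p under 0.05, and the background was the same, with 0 of 11099 genes called (0%). The adjusted p of the 10 ran from 0.168 to 0.923. At an unadjusted p under 0.05 there were 4 of the 10 (Rps6kb1, Tsc1, Rptor and Tsc2, all higher in homozygous muscle), against 24.3% of all genes in either direction and 23.7% in that one. For the same 4 genes the groups did not overlap and the homozygous libraries were above, against 34.7% of all genes tested, so the share of members is close to the background. The median log2 fold change of the 10 was 0.29 (homozygous minus WT, on the log2(TPM + 1) scale, which understates changes of low genes), and the median of all genes was 0.26. Below, the difference relative to that 0.26 is also given for the sum of each of the 10 genes. Values of isoforms and of other genes are as fitted unless said otherwise.

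**Figure D1:**
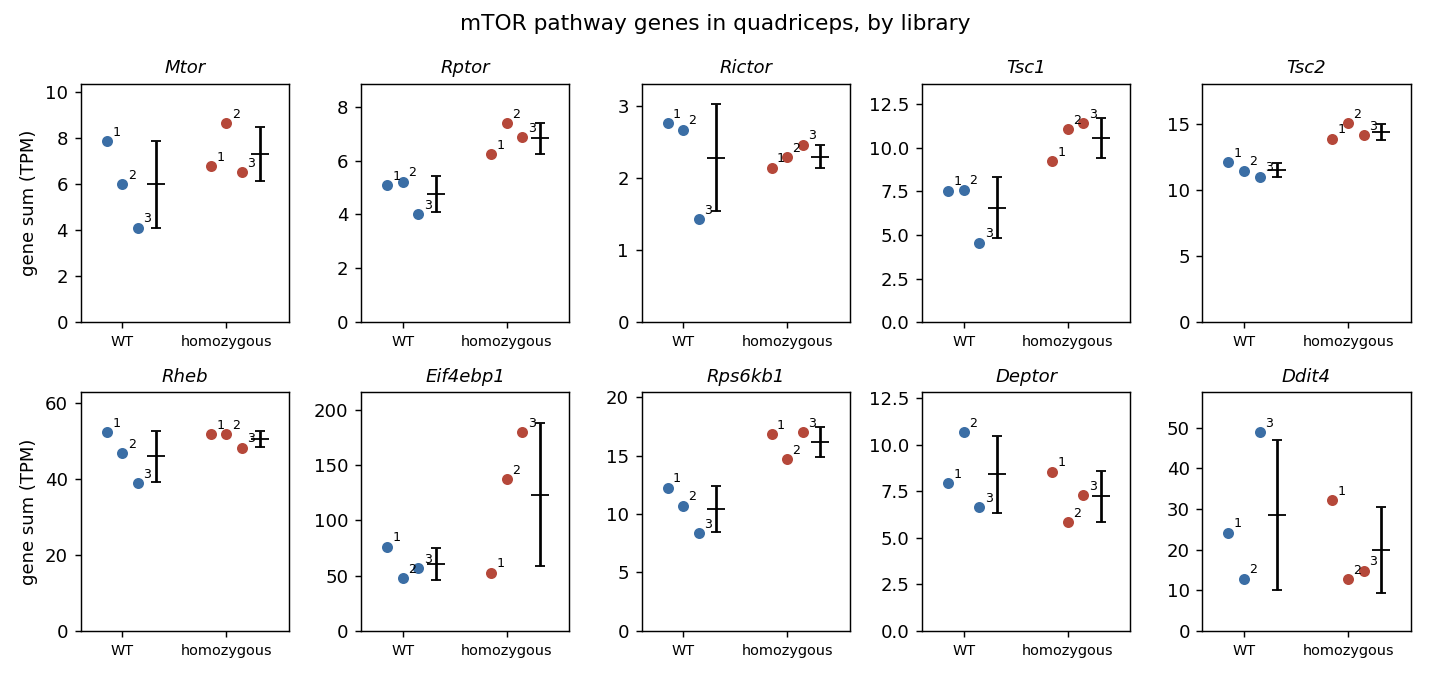
Gene sums in TPM (linear axes from 0) for each of the 10 genes, with 1 numbered point per library (WT blue, homozygous red) and the group mean ± SD (n = 3) in black. Groups are apart for Rptor, Tsc1, Tsc2 and Rps6kb1 and overlap for the other 6, and Eif4ebp1 and Ddit4 have the widest spread.

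The libraries themselves were unequal. TPM carries no depth, and low values gave an estimated 15.8 M to 21.7 M fragments per library. Mitochondrially encoded transcripts took 14.3% of TPM in WT replicate 3, 33.9% in WT replicate 2 and 20.9% to 27.3% in the others. The 10 genes rested on an estimated 209 (Rictor, WT replicate 3) to 2576 (Eif4ebp1, homozygous replicate 3) fragments. The p-values measure the spread between these 6 mice only. All 7 skeletal muscle markers were present in every library, with a summed level of 41106 to 63506 TPM. Schwann cell genes summed to 28.2 to 103 TPM in homozygous and 15.8 to 25.1 TPM in WT muscle. In slow-fibre genes a library of each group stood apart: they summed to 207 TPM in WT replicate 3 and 9157 TPM in homozygous replicate 2, where the other 4 libraries had 1020 to 2005 TPM. Fast-fibre genes summed to 200495 TPM in WT replicate 3 and to 84456 to 113883 TPM in the other 5. Myh1 and Myh2 of that list were instead lowest in WT replicate 3, at 239 and 122 TPM, and all its other genes were highest there. Homozygous libraries were above all WT libraries for Myh1 (means 1126 and 339 TPM) and Myh2 (600 and 252 TPM). The median difference between groups also grew with transcript length, from 0.12 for genes under 1000 nt to 0.37 for genes over 4000 nt. The part of fibre composition, nerve-sheath RNA and transcript length in the differences below was not tested, and values without 1 library or with a length trend removed are given where they matter. In bulk tissue, fewer cells of a type and less RNA per cell cannot be told apart.

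Mtor (chromosome 4, 148448611 to 148557683) encodes the kinase shared by both complexes. Its sum was 6.77, 8.65 and 6.51 TPM in homozygous replicates 1, 2 and 3, and 7.87, 5.99 and 4.10 TPM in WT replicates 1, 2 and 3; values below keep this order. The groups overlapped, since WT replicate 1 lay above 2 of the 3 homozygous libraries. The log2 fold change was 0.28 (SE 0.22, adjusted p 0.424 in limma), or 0.01 relative to all genes, and it became -0.11 when the length trend was removed. Single libraries moved it, to 0.068 without WT replicate 3, 0.16 without homozygous replicate 2 and 0.47 without WT replicate 1. The full-length coding isoform (8564 nt, 58 exons) was 5.75 ± 0.795 TPM against 4.05 ± 0.661 TPM in WT (SD, n = 3 each) and its groups were apart. A 598 nt isoform annotated as retained intron carried the overlap: it was highest in WT replicate 1, at 3.001 TPM, and between 0.145 and 1.58 TPM elsewhere. These values rest on few reads, an estimated 22.3 fragments in WT replicate 1 and 0.926 to 9.87 in the other libraries.

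Rptor (chromosome 11, 119602905 to 119899576) encodes raptor, the scaffold that brings substrates to mTORC1. Its sum was 6.24, 7.38 and 6.86 TPM in homozygous and 5.08, 5.22 and 4.00 TPM in WT libraries. Every homozygous library lay above every WT library. The log2 fold change was 0.44 (SE 0.16, adjusted p 0.172 in limma), which was 0.18 relative to all genes and 0.06 with the length trend removed.

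Rictor (chromosome 15, 6708379 to 6800401), the scaffold particular to mTORC2, was measured on 1 coding isoform of 9312 nt. It was 2.15, 2.29 and 2.47 TPM in homozygous and 2.76, 2.67 and 1.43 TPM in WT libraries. WT replicates 1 and 2 lay above all homozygous libraries and WT replicate 3 below them. Group means stood at 2.30 ± 0.162 and 2.29 ± 0.745 TPM (SD, n = 3 each). Nearly equal as they are, they gave 0.03 in log2 fold change (SE 0.21, adjusted p 0.923 in limma), or -0.23 relative to all genes and -0.17 without WT replicate 3. The ratio of Rptor to Rictor, which no common scaling moves, was 2.91, 3.22 and 2.78 in homozygous and 1.84, 1.95 and 2.80 in WT libraries. Its groups overlapped through WT replicate 3 (exact permutation test, two-sided, p = 0.2; 4 ratios were computed, chosen after the values were seen).

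Tsc1 (hamartin; chromosome 2, 28641228 to 28691167) and Tsc2 (tuberin; chromosome 17, 24595816 to 24632630) encode the complex that turns RHEB off. Tsc1 was 9.25, 11.1 and 11.4 TPM in homozygous and 7.55, 7.60 and 4.56 TPM in WT libraries, so the groups were apart. Its log2 fold change was 0.64 (SE 0.20, adjusted p 0.168 in limma), or 0.37 relative to all genes. It was 0.43 without WT replicate 3 and 0.23 with the length trend removed. Tsc2 was 13.9, 15.02 and 14.1 TPM in homozygous and 12.1, 11.5 and 11.004 TPM in WT libraries. Its WT spread was the smallest of the 10 relative to the mean, and its groups were apart too. Its log2 fold change of 0.29 (SE 0.12, adjusted p 0.202 in limma) was 0.03 relative to all genes and turned to -0.09 with the length trend removed. The ratio of Tsc1 to Tsc2 was 0.667, 0.738 and 0.806 in homozygous and 0.624, 0.663 and 0.414 in WT libraries. Its groups were apart by a narrow margin between homozygous replicate 1 and WT replicate 2 (exact permutation test, two-sided, p = 0.1, the smallest that 3 against 3 allows). Tsc2 shares 572 nt of exon with Pkd1 on the opposite strand, Rptor 84 nt with Rptoros and Deptor 303 nt with Gm9920 likewise; the sources used here do not say whether quantification used strand.

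Rheb (chromosome 5, 24802823 to 24842624), the GTPase that activates mTORC1, varied little in homozygous muscle. It was 51.8, 51.9 and 48.3 TPM in homozygous and 52.4, 46.8 and 39.0 TPM in WT libraries. The groups overlapped, with WT replicate 1 highest of all 6. The log2 fold change was 0.14 (SE 0.14, adjusted p 0.505 in limma), or -0.12 relative to all genes. It was negative with quantile normalization (-0.095) and with the length trend removed (-0.088). Without WT replicate 3 it was 0.031, and without WT replicate 1 it was 0.24. The ratio of Rheb to Tsc2 was 3.53 ± 0.176 in homozygous and 3.99 ± 0.405 in WT muscle (SD, n = 3 each), with overlapping groups (exact permutation test, two-sided, p = 0.2).

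Eif4ebp1 (chromosome 8, 27260329 to 27276674) encodes 4E-BP1, which holds the cap-binding protein eIF4E until mTORC1 phosphorylates it. Its sum had the highest log2 fold change of the 10 and a wide spread: 52.5, 137.6 and 180.0 TPM in homozygous and 76.2, 47.7 and 56.7 TPM in WT libraries. Homozygous replicates 2 and 3 lay above all WT libraries, and homozygous replicate 1 lay inside the WT range. Group means stood at 123 ± 64.9 and 60.2 ± 14.5 TPM (SD, n = 3 each), a ratio of 2.05. The log2 fold change of 0.88 (SE 0.44), or 0.61 relative to all genes, was within the spread between libraries (limma, adjusted p 0.245). It was positive in every setting run for it. It was 1.40 without homozygous replicate 1 (adjusted p 0.171 in limma) and 0.52 without homozygous replicate 3. The same pair of homozygous libraries, replicates 2 and 3, had the highest slow-fibre scores (mean log2(TPM + 1) of 10 slow-fibre genes), 8.84 and 6.68, with 3.21 to 6.31 in the other 4 libraries. With that score as a covariate the log2 fold change was 0.52 (limma, adjusted p 0.846).

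In TPM, the annotated coding isoform of Eif4ebp1 was not its main row. A non-coding processed transcript of 798 nt (ENSMUST00000210959.1), which shares 599 nt with the 1997 nt coding isoform, held 66.9%, 64.5% and 70.6% of the gene sum in homozygous and 67.7%, 57.6% and 70.7% in WT libraries. These shares overlapped between groups (exact permutation test, two-sided, p = 0.9). In both isoforms homozygous replicates 2 and 3 held the highest values. The coding isoform was 17.4, 48.8 and 53.0 TPM in homozygous and 24.6, 20.2 and 16.6 TPM in WT libraries. In estimated fragments, before division by length, the coding isoform held more than the non-coding one in every library. It had 588, 1269 and 1400 in homozygous and 761, 554 and 492 in WT libraries. The non-coding isoform had 418, 805 and 1175 in homozygous and 556, 265 and 419 in WT libraries.

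**Figure D2:**
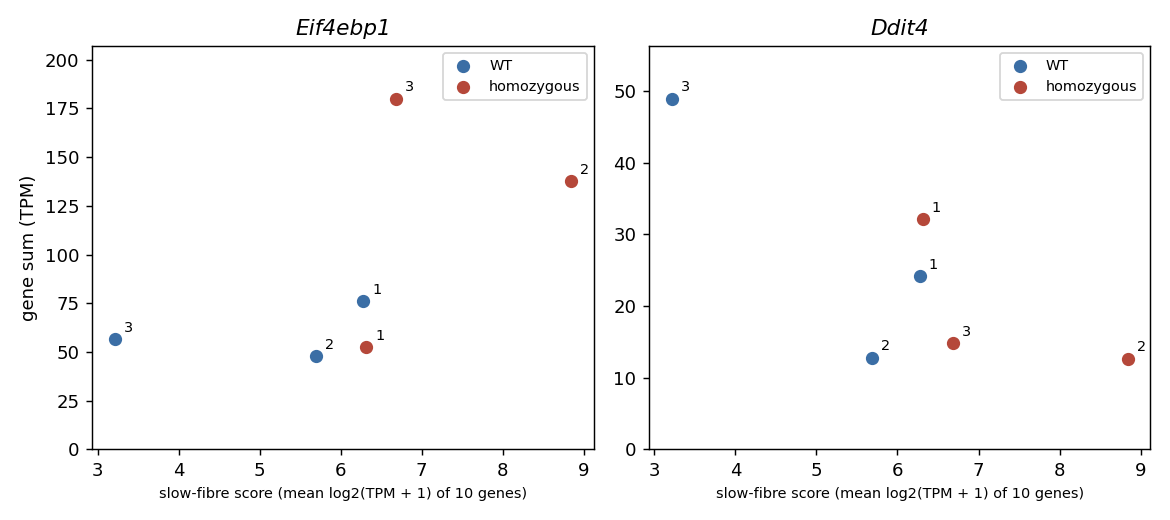
Gene sums in TPM (vertical, linear from 0) of Eif4ebp1 and Ddit4 against the slow-fibre score of each library (horizontal, mean log2(TPM + 1) of 10 genes), with points numbered by replicate (WT blue, homozygous red). WT replicate 3 has the lowest score, 3.21, and the highest Ddit4, 48.9 TPM; homozygous replicates 2 and 3 have the 2 highest scores and the 2 highest Eif4ebp1 values.

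Rps6kb1 encodes S6 kinase 1, which phosphorylates ribosomal protein S6 and initiation factors. Its sum was 16.8, 14.7 and 17.02 TPM in homozygous and 12.2, 10.7 and 8.38 TPM in WT libraries, with the groups apart. The log2 fold change was 0.60 (SE 0.16, adjusted p 0.168 in limma), or 0.33 relative to all genes, with 0.46 left without WT replicate 3 and 0.27 with the length trend removed. The group means were 16.2 ± 1.29 and 10.4 ± 1.95 TPM (SD, n = 3 each), and most of that difference sat in 1 isoform, the one that keeps the intron printed above.

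The intron-keeping isoform ENSMUST00000020824.14 (2771 nt, 15 exons, no annotated coding sequence) was 5.91, 5.44 and 5.81 TPM in homozygous and 2.20, 2.04 and 1.68 TPM in WT libraries. Group means stood at 5.72 ± 0.244 and 1.97 ± 0.266 TPM (SD, n = 3 each), a ratio of 2.90, and the lowest homozygous value lay well above the highest WT value. These values rest on an estimated 284, 201 and 218 fragments in homozygous and 96.6, 79.1 and 70.5 in WT libraries. Its log2 fold change was 1.18 (SE 0.18), with an unadjusted p of 0.000323 that did not pass over 21165 isoforms (limma, adjusted p 0.131). The value ran from 0.89 to 1.497 over the settings tried, and was 1.11 without WT replicate 3 and 0.92 with the length trend removed. The full coding isoform ENSMUST00000154617.7 (5531 nt) was 4.86, 5.95 and 6.77 TPM in homozygous and 5.35, 6.73 and 3.21 TPM in WT libraries, with overlapping groups.

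As a share of the Rps6kb1 sum, the intron-keeping isoform held 35.1%, 37.1% and 34.1% in homozygous and 18.0%, 19.0% and 20.04% in WT libraries. The difference was 16.5 percentage points (exact permutation test, two-sided, p = 0.1, the smallest that 3 against 3 allows). A share within 1 gene does not move with a change common to all genes. The 2 isoforms share 2369 nt: 402 nt, the intron and the added exon printed above, belong to the intron-keeping isoform alone, and 3162 nt, all at the 3′ end, to the coding isoform alone. The split between them rests on those stretches and on how the authors' quantifier divided the rest. The coding isoform overlaps Rnft1, on the opposite strand, by 155 nt. Over the 2680 tested isoforms of the retained-intron type the median log2 fold change was 0.22, and over 14958 coding isoforms it was 0.26.

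Rptor was the other gene with isoform shares that did not overlap between groups. Its coding isoform (ENSMUST00000026671.12, with the 76 nt exon) was 3.68, 4.08 and 3.32 TPM in homozygous and 1.78, 2.40 and 0.507 TPM in WT libraries. The exon-skipping isoform was 2.17, 2.83 and 3.09 TPM in homozygous and 3.02, 2.68 and 3.47 TPM in WT libraries. The coding isoform was thus higher in every homozygous library than in any WT library, while the skipping isoform overlapped. Its log2 fold change was 0.95 (SE 0.33, adjusted p 0.291 in limma), or 0.61 without WT replicate 3. The coding isoform held 59.0%, 55.3% and 48.5% of the Rptor sum in homozygous and 35.1%, 46.1% and 12.7% in WT libraries. The lowest homozygous share thus lay close above the highest WT share (exact permutation test, two-sided, p = 0.1, again the smallest possible). Beyond the exon, the annotated ends of the 2 isoforms differ: they share 5969 nt, with 625 nt in the coding and 169 nt in the skipping isoform alone.

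**Figure D3:**
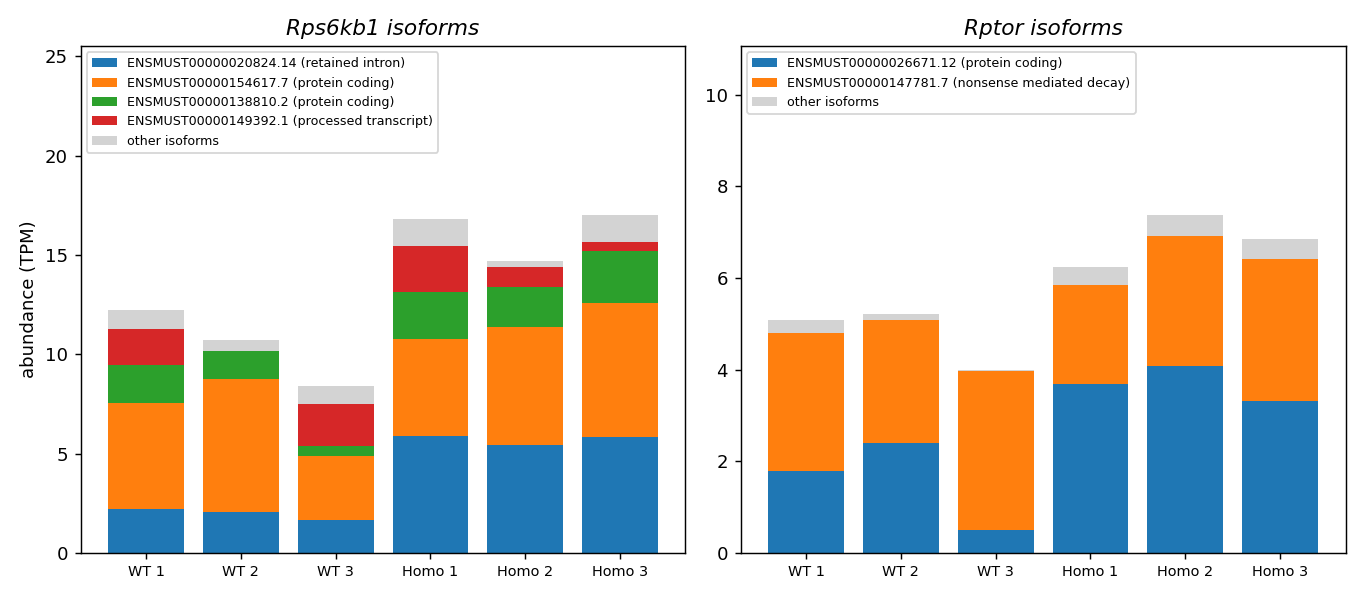
Stacked abundance in TPM of the isoforms of Rps6kb1 (left) and Rptor (right) in each of the 6 libraries, with isoforms that did not pass the filter in grey. The intron-keeping Rps6kb1 isoform (blue, left) is 5.44 to 5.91 TPM in the homozygous and 1.68 to 2.20 TPM in the WT libraries; the coding Rptor isoform (blue, right) is 3.32 to 4.08 and 0.507 to 2.40 TPM.

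Of the 46 isoform rows, 8 were at 0 in all libraries and 19 passed the filter of 1 TPM in at least 3 libraries; the other 27, rows at 0 included, were not tested. None of the 19 was called in limma at an adjusted p under 0.05, against 0.0425% of all isoforms, and 2 had an unadjusted p under 0.05 (the intron-keeping Rps6kb1 and the coding Rptor isoform), against 15.7% of all. Groups were apart with homozygous above for 5 of the 19, against 25.6% of all isoforms tested, and with homozygous below for 0, against 2.11%. Shares of the gene sum could be formed for 15 isoforms. Of these 3 had groups that did not overlap (the 2 of Rptor and the 1 of Rps6kb1), against 18% of 18886 isoforms in the whole table, so the count is near the background. The 3 main Tsc1 isoforms share over 99% of their length with each other, and their split moved between libraries with no pattern by group: ENSMUST00000113867.8 was 3.71, 6.24 and 6.51 TPM in homozygous and 3.68, 5.34 and 0.000813 TPM in WT libraries. Single Tsc1 isoforms are therefore not read here, only their sum.

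The 2 inhibitors were the members with a lower mean in homozygous muscle, and neither passed the test. Deptor (chromosome 15, 55112317 to 55259271), which binds mTOR in both complexes, came from 1 coding isoform of 8547 nt, with its other 2 rows at 0. It was 8.55, 5.85 and 7.27 TPM in homozygous and 7.94, 10.7 and 6.63 TPM in WT libraries. The groups overlapped, with the highest value in WT replicate 2 and the lowest in homozygous replicate 2. The log2 fold change was -0.19 (SE 0.20, adjusted p 0.552 in limma), or -0.45 relative to all genes, and it was negative in every setting run. Its size rested on single libraries: it was -0.019 without WT replicate 2 and -0.060 without homozygous replicate 2, but -0.30 without homozygous replicate 1 and -0.33 without WT replicate 3. With the length trend removed it was -0.60. Its lowest adjusted p over those settings was 0.253 (limma).

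Ddit4 (chromosome 10, 59949669 to 59951834, minus strand), induced by glucocorticoids, energy stress and hypoxia, has 1 isoform of 1755 nt. It was 32.1, 12.7 and 14.9 TPM in homozygous and 24.2, 12.8 and 48.9 TPM in WT libraries. Both groups held a value near 12.7 TPM and the highest was WT replicate 3, so the groups overlapped over nearly the whole homozygous range. Group means stood at 19.9 ± 10.6 and 28.6 ± 18.5 TPM (SD, n = 3 each), which is -0.42 in log2 fold change (SE 0.51, adjusted p 0.587 in limma). It ran from -0.88 without WT replicate 2 and -0.81 without homozygous replicate 1 to -0.18 without homozygous replicate 2. Without WT replicate 3 it was 0.05, or -0.15 relative to all genes in that fit. The sign thus rests on that library as fitted, but not relative to all genes. With the slow-fibre score as a covariate it was 0.49, or 0.33 relative to all genes in that fit. Other glucocorticoid-responsive genes did not share a pattern. Tsc22d3 was also highest in WT replicate 3, as was Sgk1. Fkbp5 was high there and in homozygous replicates 2 and 3, where Ddit4 was low. Klf15 was instead lowest in WT replicate 3, at 11.04 TPM, with 15.1 to 28.8 TPM elsewhere. Per1 varied little, from 18.2 to 21.4 TPM, and was highest in homozygous replicate 2. Fkbp5 was 11.04, 27.4 and 26.5 TPM in homozygous and 9.79, 9.70 and 25.9 TPM in WT libraries, and Tsc22d3 was 142, 144 and 176 TPM and 107, 149 and 199 TPM. Nr3c1, the receptor gene that carries the allele, was 19.5 to 20.01 TPM in homozygous and 8.07 to 14.8 TPM in WT libraries. Its groups were apart with homozygous above, as for 34.7% of all genes. Its log2 fold change of 0.77 (SE 0.20) did not pass (limma, adjusted p 0.168).

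**Figure D4:**
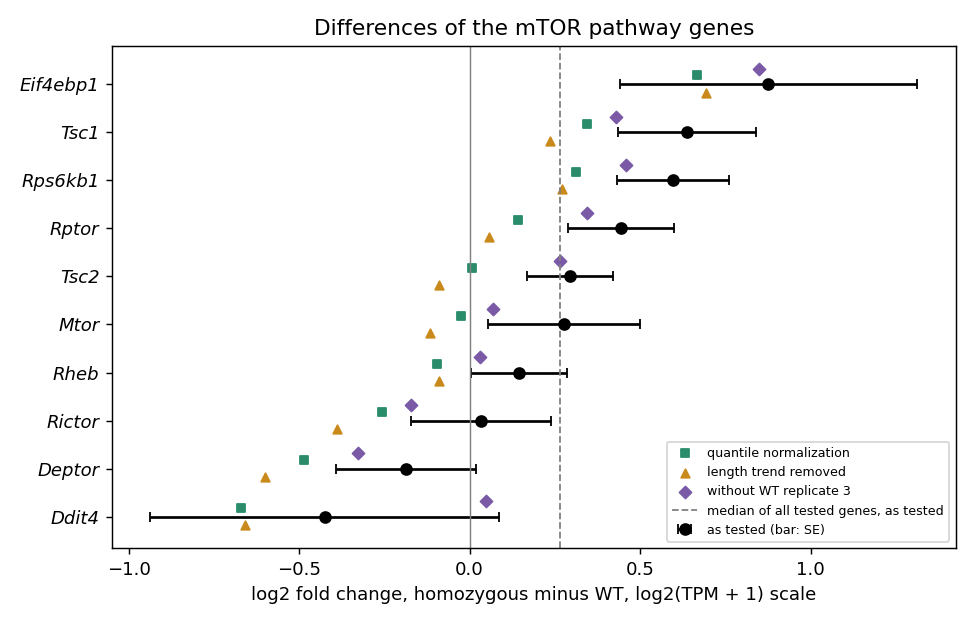
Log2 fold change (homozygous minus WT, log2(TPM + 1) scale) of the 10 genes as tested, with bars of 1 SE, and its value with quantile normalization (squares), with the length trend removed (triangles) and without WT replicate 3 (diamonds); the dashed line is the median of all tested genes, 0.26. The values run from -0.42 for Ddit4 to 0.88 for Eif4ebp1, and quantile normalization moves Mtor, Rheb and Rictor below 0.

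Profiles over the 6 libraries were compared by the root mean square difference of log2(TPM + 1) after centring each gene. Among 6834 genes with a mean of at least 5 TPM, those nearest to Ddit4 and to Deptor were looked up. For Ddit4, whose own spread on that measure was 0.698, they were Gadd45g (0.245), Ampd1 (0.257) and Pgam2 (0.292). Gadd45g is a stress-response gene, and Ampd1 and Pgam2 encode muscle enzymes of AMP deamination and glycolysis. Pgam2 was 2554, 1456 and 1702 TPM in homozygous and 2187, 2043 and 5179 TPM in WT libraries, so it too was highest in WT replicate 3. Ampd1 was also highest there, at 1035 TPM. Gadd45g, the nearest of all, was highest in homozygous replicate 1, at 190 TPM, with 177 TPM in WT replicate 3. For Deptor, with a spread of 0.245, the nearest genes were Gid4 (0.077), Tmem233 (0.077) and Tmcc2 (0.095). Gid4, a substrate receptor of an E3 ligase, was 25.2, 17.5 and 19.6 TPM in homozygous and 21.7, 26.6 and 17.6 TPM in WT libraries. The same library was highest and the same lowest as for Deptor. All these genes were picked for their likeness over these same 6 libraries, so a shared highest or lowest library largely follows from the choice. How near the closest of 6834 genes would lie by chance was not tested.

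The rest of the pathway was read from 7 lists of 67 genes, of which 65 were in the table and 60 were tested. In limma 0 of the 60 passed an adjusted p under 0.05, 16 had an unadjusted p under 0.05 (24.3% of all genes did) and all 16 were higher in homozygous muscle. The groups were apart with homozygous above for 24 of the 60 and below for 0, against 34.7% and 0.73% of all genes. The median log2 fold change of the 60 was 0.29, or 0.03 relative to all genes, and 32 of the 60 lay above the median of all genes. With array weights in limma 5 of the 60 were called, against 7.3% of all genes.

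Among other subunits of the complexes (6 tested), 5 were higher and 1 lower, with a median of 0.17. Mlst8, the subunit common to both complexes, was 5.80, 5.55 and 5.001 TPM in homozygous and 3.96, 4.55 and 4.48 TPM in WT libraries. Its groups were apart, with a log2 fold change of 0.28 (SE 0.14, adjusted p 0.257 in limma), or 0.01 relative to all genes. Telo2, which helps assemble them, was lowest in the list at -0.14. In the lysosomal arm, the Rag GTPases, Ragulator and folliculin complex (13 tested) had a median of 0.31, from Lamtor4, a Ragulator subunit, at -0.24 to Fnip1, a folliculin partner, at 0.47. The GATOR and KICSTOR genes (11 tested), which relay amino acid supply to the Rags, had a median of 0.22. Mios, a GATOR2 subunit, was highest there, at 6.80 ± 0.552 against 4.48 ± 0.941 TPM in WT (SD, n = 3 each), with groups apart and a log2 fold change of 0.52 (limma, adjusted p 0.170), and Kptn, a KICSTOR subunit, lowest at -0.01.

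Other inhibitors and nutrient sensors (6 tested) had a median of 0.26. Sesn3, a sestrin that restrains mTORC1, was 2.43, 3.25 and 2.49 TPM in homozygous and 1.45, 2.07 and 0.790 TPM in WT libraries. Its groups were apart, with a log2 fold change of 0.64 (SE 0.23, adjusted p 0.174 in limma). Ddit4l, the paralog of Ddit4, was far more abundant than Ddit4 in this muscle, with means of 154 ± 40.6 TPM (homozygous) and 163 ± 55.1 TPM (WT; SD, n = 3 each), overlapping groups and a log2 fold change of -0.05. Unlike Ddit4, it was lowest in WT replicate 3, at 101 TPM.

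The translation substrates (11 tested) had a median of 0.30. Eif4a1, the helicase of the cap-binding complex, was 65.3, 81.6 and 71.9 TPM in homozygous and 49.5, 45.3 and 58.0 TPM in WT libraries, with groups apart and a log2 fold change of 0.51 (SE 0.15, adjusted p 0.168 in limma). Eif4ebp3, a paralog of Eif4ebp1, was lowest at -0.52, on 0.437 to 6.19 TPM. The other substrates (8 tested) had a median of 0.42, with 7 of the 8 above the median of all genes. Ulk1, the autophagy kinase that mTORC1 holds in check, was 28.3, 35.6 and 28.3 TPM in homozygous and 19.2, 21.4 and 13.1 TPM in WT libraries. Its groups were apart, with a log2 fold change of 0.77 (SE 0.20, adjusted p 0.168 in limma). Sgk1, a kinase downstream of mTORC2 and itself glucocorticoid-responsive, was lowest at -0.37, highest in WT replicate 3 at 125 TPM, with 64.8 to 82.3 TPM elsewhere.

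Of the 9 genes listed for ATF4, a transcription factor whose translation mTORC1 promotes, 5 were tested and Asns, Psat1, Phgdh and Slc7a5 lay below the filter. The 5 had a median of 0.47, which is the value of Chac1 (SE 0.96). Chac1 was 137, 110 and 11.3 TPM in WT replicates 1, 2 and 3. Its mean was lower in homozygous muscle, at 80.5 against 86.2 TPM. Mthfd2, an enzyme of mitochondrial folate metabolism, was highest, at 3.63, 10.1 and 9.91 TPM in homozygous and 2.36, 4.34 and 2.54 TPM in WT libraries. As for Eif4ebp1, homozygous replicates 2 and 3 lay above all WT libraries and replicate 1 inside the WT range. Its log2 fold change was 1.05 (SE 0.36, adjusted p 0.171 in limma), and Slc3a2, an amino acid transporter subunit, was lowest at 0.19.

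**Figure D5:**
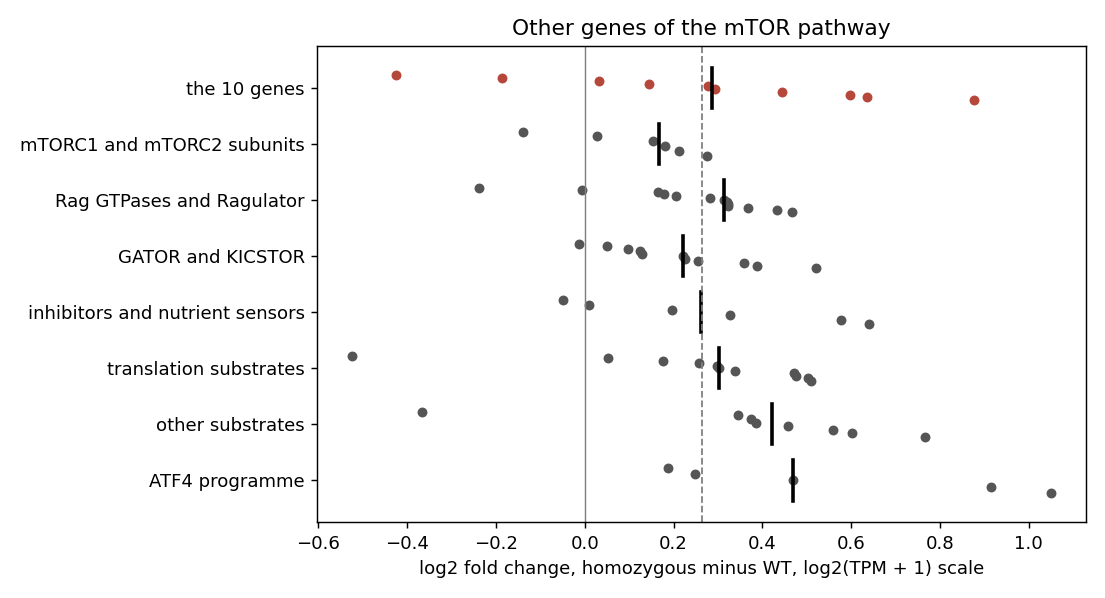
Log2 fold change (homozygous minus WT, log2(TPM + 1) scale) of every tested gene, with 1 point per gene, in rows for the 10 genes (red) and the 7 lists (grey); black bars are list medians and the dashed line is the median of all genes, 0.26. The list medians run from 0.17 to 0.47, and 53 of the 60 listed genes lie above 0.

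Promoter windows (300 bases around the start, most of them upstream; RefSeq, GRCm38.p6) were found for 8 of the 10 genes, all but Eif4ebp1 and Deptor. Both strands were searched for the half-site AGAACA of the glucocorticoid response element, for the palindrome of that half-site and its reverse complement 3 bases apart (which contains the half-site), the E-box CACGTG and the ATF4-type element TGATGNAA. The palindrome was in 0 of the 8 windows and in 0.00913% of 32851 windows, and the half-site was in the Rps6kb1 window and in 19% of all. The E-box was in the Rheb window and in 7.15% of all, and the ATF4-type element in 0 of the 8 and 3.97% of all. These are matches of letters in 300 bases only.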

How the data were processed

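RNA was poly-A selected and made into stranded libraries from quadriceps of 3 homozygous and 3 WT mice, per the labels' protocols. The authors deposited TPM per Ensembl transcript, 1 column per library, and each column matched 1 library by name. FastQC, Trimmomatic, HISAT2, kallisto and mm10 are named in the submitters' processing notes, without versions or roles; the sources used here do not give the annotation or filters. kallisto divides reads among isoforms by a model, so isoform values depend on its split.

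TPM were summed per gene. Genes (11099) and isoforms (21165) that reached 1 TPM in 3 or more libraries entered the test as log2(TPM + 1) with limma 3.58.1 in R 4.3.3 (trend, robust, genotype as the only term), with Benjamini-Hochberg adjustment over all of them at 0.05. The mice are littermates per the series' design text, which does not say which mice share a litter. Annotation was GENCODE M21 (GRCm38), which 103635 of 105129 rows matched without version.

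Depth was estimated from single-transcript genes of at least 1500 nt: low TPM values times length (less 144 to 156 nt), divided by 1 constant per library, were within 0.03 of a whole number for 72.5% to 76.1% of values (6% by chance).

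The 10 genes, the lists, the rule for named genes (all members, their tested isoforms, and the highest and lowest gene of each list) and the alternatives were chosen with earlier results of these data known. Added after seeing the files were removal of a length trend (loess, span 0.5), array weights with quantile normalization, and the 4 ratios.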

Additional observations from a re-analysis of the deposited data

How the results depend on the processing

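The count of 0 called genes among the 10, and of 0 called isoforms, held in every alternative run: quantile normalization, median centring, mitochondrial transcripts left out, no filter, a pseudocount of 0.1, array weights alone or with quantile normalization, the slow-fibre covariate, removal of the length trend, and each library left out. Over all genes the count of 0 became 810 under array weights, 2 once these were joined to quantile normalization, and 0 to 2 without 1 library (2 without WT replicate 1, 1 without WT replicate 2). Of the other pathway genes 5 were called with array weights (Eif4a1, Nprl3, Tfe3, Trib3 and Ulk1), which gave WT replicate 3 a weight of 0.199. The median of all genes, 0.26, was -0.01 with quantile normalization and -0.04 with median centring. The 3 isoforms whose shares were apart all had a mean below 5 TPM. A filter at that mean left them out, so it cannot speak to their shares. Of the isoforms it kept, 0 were apart. The count was 3 to 6 without 1 library, with 6 without WT replicate 3. With the replicate number as a block, 0 members, 0 of their isoforms, 0 pathway genes and 0 genes were called; deviations of same-numbered libraries correlated at -0.07, 0.06 and -0.01, and the labels do not call the numbers a pairing.

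Directions turned as follows; the cause was not tested. Mtor was -0.026 with quantile normalization, -0.024 with median centring, -0.16 with the slow-fibre covariate, -0.11 with the length trend removed and -0.14 with array weights and quantile normalization. In the same order Rheb was -0.095, -0.16, -0.036, -0.088 and -0.18, and Rictor -0.26, -0.27, -0.25, -0.39 and -0.35, with -0.13 for Rictor under array weights alone. Rictor ran from -0.17 to 0.14 without 1 library and was -0.0033 without homozygous replicate 3. Median centring put Tsc2 at -0.0069 and removal of the length trend at -0.091. Ddit4 was 0.49 with the slow-fibre covariate, and without 1 library it ran from -0.88 (without WT replicate 2) to 0.049 (without WT replicate 3). Rptor, Tsc1, Eif4ebp1, Rps6kb1 and Deptor kept their direction in every setting run.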
